A study of Mus musculus with 75 samples.

Results

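Spink1, Cela1 and Dmbt1 are 3 of the 55536 genes in a count table of mouse liver RNA, and each encodes a protein that cells secrete. They were chosen by name from results of these same libraries. Spink1 and Cela1 were picked for their difference between liver tumors and the uninvolved liver around them at 10 months, Spink1 also for its difference between tumors and vehicle livers, and Dmbt1 for its difference between 10-month and 5-month vehicle livers. Those differences are therefore given as a description with no test, as are all other comparisons that include either group of the comparison that chose the gene. The other comparisons carry the test of edgeR's quasi-likelihood fit over all genes, with Benjamini-Hochberg adjusted p-values called under 0.05.

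The livers came from male wild-type C57Bl/6 mice whose mothers drank either vehicle or tributyltin (TBT), an organotin biocide that activates the nuclear receptors RXR and PPAR-gamma, until weaning, at a daily dose of 0.5 mg/kg from water that held 3.07 µM. At 3 weeks there were 7 vehicle and 8 TBT mice. At 5 months there were 8 vehicle mice and 26 TBT mice, of which 16 are labelled low-risk and 10 high-risk for liver tumors, without a statement in the labels of how the risk was assigned. At 10 months there were 6 vehicle livers, 5 low-risk TBT livers, uninvolved liver of 6 high-risk TBT mice and tumors of 7 high-risk TBT mice, and 1 further library that carries a vehicle label and a tumor label and enters no group. Every 3-week and 10-month library belonged to the first sequencing batch, while the 5-month libraries were split over both batches, with 7 of 8 vehicle, 6 of 16 low-risk and 3 of 10 high-risk livers in the first. The labels number the mice but say nothing of litters, so p-values measure the spread between these samples.

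Digestive proteases are made and stored as inactive precursors by the acinar cells of the exocrine pancreas, together with inhibitors that protect the cell if a protease becomes active too early. Spink1, the pancreatic secretory trypsin inhibitor, is such a protector, and in the liver it is also known as a secreted protein of injured or transformed hepatocytes. Cela1 is a chymotrypsin-like elastase, a serine protease that cleaves elastin and is made in several tissues outside the pancreas. Dmbt1 is a large glycoprotein built from scavenger receptor cysteine-rich domains, which the lining of the gut, the salivary glands and the bile ducts secrete and which binds bacteria.

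In the GRCm38 annotation (GENCODE M21), Spink1 (ENSMUSG00000024503) lies on the minus strand of chromosome 18 from 43728082 to 43737557, with 729 exonic bases. Cela1 (ENSMUSG00000023031) lies on the minus strand of chromosome 15 from 100674421 to 100687921, with 9 annotated transcripts and 2306 exonic bases. Dmbt1 (ENSMUSG00000047517) lies on the plus strand of chromosome 7 from 131032053 to 131121630, with 6 transcripts and 7057 exonic bases. The annotated span of Fgfr2, a growth factor receptor gene, overlaps Dmbt1 on the opposite strand. The library kit keeps the strand, but whether the counting used it is not given in the sources used here. Fgfr2 stood at 36.5, 69.1 and 57.9 CPM (counts scaled to the library total) in the 3 libraries with the most Dmbt1, within its range of 30.2 to 99.97 CPM over all libraries.

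The promoter of Cela1, the 1 member matched in the RefSeq promoter table, is shown as the start region of a gene with counts in every liver sample. It lies at chr15:100687922-100688170 on the minus strand of GRCm38.p6 from RefSeq, with a TATA box and an E-box in capitals.

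Cela1 promoter: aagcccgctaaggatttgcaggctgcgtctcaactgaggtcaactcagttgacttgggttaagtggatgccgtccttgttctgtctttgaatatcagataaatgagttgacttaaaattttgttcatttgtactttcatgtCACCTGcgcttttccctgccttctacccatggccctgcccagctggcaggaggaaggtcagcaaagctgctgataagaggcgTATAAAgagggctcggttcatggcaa

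The letters TATAAA stood at bases -26 to -21 and CACCTG, an E-box form, at -108 to -103 from the start, both on the strand of the gene and neither on the other strand. Over both strands, TATAAA was found in 12.3% and CACCTG in 17.2% of 32535 promoter windows of this table. A match describes the letters and is not evidence of a bound site.

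Total counts ran from 2831666 to 45448610 per library. The hepatocyte list (Alb, Apoa1, Ttr and others, 8 genes) summed to between 67186 and 194650 CPM in the 74 libraries of the 9 groups, so each was rich in hepatocyte RNA. In 6 libraries the total was very low (only 2831666 counts in 1 of them), over 35000 genes had a count or mitochondrial genes took over 10% of the counts. Uninvolved livers 3 and 6 agreed far more closely with each other than any other pair, with a chi-square per gene of 3.88 (next pair 15.3), so their counts were summed to 1 sample, which leaves 5 uninvolved samples. In bulk RNA, fewer cells of a type and less RNA per cell cannot be told apart.

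**Figure D1:**
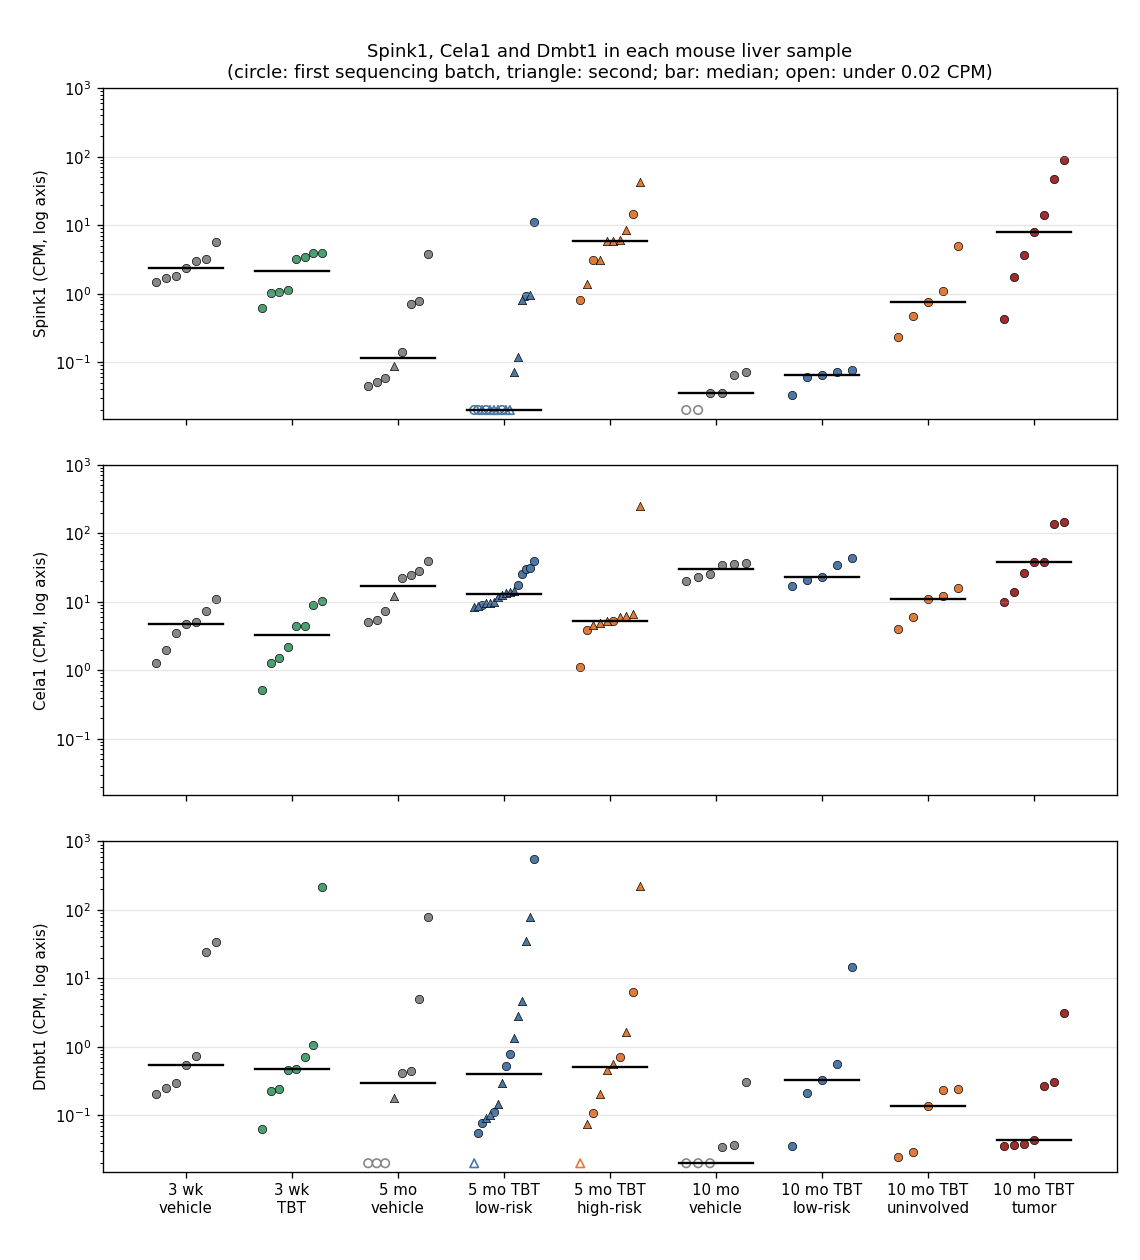
CPM of Spink1, Cela1 and Dmbt1 (log axes) in each of 72 samples by group, with circles for the first and triangles for the second sequencing batch, bars for group medians and open symbols for values under 0.02 CPM. Spink1 was high in 5-month high-risk livers and tumors, Cela1 was present in every sample, and Dmbt1 was near 0 in most samples and above 10 CPM in 9.

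Spink1 was present in young livers, stood under 1 CPM in all but 2 of the adult vehicle and low-risk livers, and had counts in all adult high-risk livers and tumors. The ranges overlapped, since the lowest adult high-risk liver held 0.230 CPM and 5-month vehicle livers 4 and 6 held 3.75 and 0.770 CPM. Vehicle liver 9 stood at 0.706 CPM from only 2 counts, where 3 counts would be 1.06 CPM. Of 72 samples, 29 held at most 3 Spink1 counts and 6 reached 10 CPM. Per kilobase of exon, the group medians were 3.25 CPM in 3-week vehicle, 2.97 in 3-week TBT, 0.159 in 5-month vehicle, 0 in 5-month low-risk, 8.05 in 5-month high-risk, 0.0493 in 10-month vehicle, 0.0886 in 10-month low-risk, 1.05 in uninvolved high-risk liver and 10.9 in tumors. The ranges of tumors and 5-month high-risk livers, of the 2 groups at 3 weeks, and of the vehicle and low-risk livers at 10 months overlapped within each of those pairs of neighbours.

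At 3 weeks, Spink1 was 1.49 CPM in the lowest, 2.37 in the median and 5.73 in the highest vehicle liver, and 0.613, 2.16 and 3.95 CPM in the TBT livers. The 2 groups overlapped over most of their range. The mean was 2.77 ± 1.47 CPM (SD, n = 7) in vehicle and 2.29 ± 1.45 (SD, n = 8) in TBT livers, a log2 difference of -0.25 (SE 0.37, edgeR adjusted p = 0.999). Neither Spink1 nor Cela1 was called at this age, where edgeR called 0.00% of 14050 genes, and Dmbt1 did not pass the filter on low counts. At an unadjusted p under 0.05 there were 474 genes, and DESeq2 called 2.

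At 5 months, 6 of 8 vehicle livers held at most 3 Spink1 counts. The vehicle livers ranged from 0.0448 to 3.75 CPM with a median of 0.116, and the highest was vehicle liver 4. Among the 16 low-risk livers 10 had no Spink1 count, which at their depths allows up to 0.0665 to 0.389 CPM. That floor covers counting error only, and the deposited counts were already batch-adjusted, which can shift low counts. The highest, low-risk liver 2 at 10.9 CPM, held 79.2% of the group's summed CPM (the next was at 0.948). All 10 high-risk livers held Spink1, from 0.795 to 43.0 CPM with a median of 5.87. High-risk liver 1 was the highest and high-risk liver 4 followed at 14.4 CPM.

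Thus 9 of 10 high-risk livers lay above the second-highest low-risk liver, and 6 of 10 above the highest vehicle liver. The high-risk mean was 9.21 ± 12.5 CPM (SD, n = 10) against 0.863 ± 2.71 (SD, n = 16) in low-risk livers, a log2 difference of 4.14 (SE 1.02, edgeR adjusted p = 0.00174). Spink1 was the 1 member called, in a comparison in which 38.9% of 14773 genes were called and 20.3% were called higher, so a call here does not set the gene apart. It passed the filter on low counts largely through the high-risk livers, which all held at least 10 counts. Its adjusted p-values in this fit are therefore given beside the levels and not read as separate support. Of the 16 low-risk livers, 12 held at most 3 counts. Spink1 stayed called without high-risk liver 1 (3.26), without low-risk liver 2 (5.28) and without both (4.48). Within the second sequencing batch the log2 fold change was 5.45 (edgeR adjusted p = 0.000196) and the groups did not overlap, with 1.38 to 43.0 CPM in 7 high-risk and 0 to 0.948 in 10 low-risk livers. Within the first batch it was 1.42 (edgeR adjusted p = 0.689) over 3 high-risk livers at 14.4, 3.102 and 0.795 CPM and 6 low-risk livers, of which liver 2 stood at 10.9, liver 3 at 0.919 and 4 at 0.

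Biliary markers also differed between high-risk and low-risk livers. Of 12 biliary epithelial genes, 11 were tested and 7 were higher in high-risk livers, beside 38.9% of all genes called and 20.3% called higher. Their summed level ran from 64.2 to 509 CPM in high-risk and from 52.1 to 268 in low-risk livers, so the ranges overlapped, with at most 1 and 5 of the 12 genes at 0. Their part in the Spink1 difference was not tested.

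Against vehicle, Spink1 was higher in high-risk livers by 4.94 on the log2 scale (SE 1.42, edgeR adjusted p = 0.0169), where 15.8% of genes were called and 8.47% called higher. The same limit of the filter holds here, since 6 of 8 vehicle livers held at most 3 counts. That call was lost with no filter on low counts (4.96, adjusted p = 0.0631), within the first batch (2.67, adjusted p = 0.510) and with only these 2 groups in the fit (3.14, adjusted p = 0.0819), all by edgeR. Low-risk and vehicle livers differed by 0.80 (SE 1.10, edgeR adjusted p = 0.961), and by -2.12 (adjusted p = 0.857) without low-risk liver 2. In this comparison edgeR called 0.00% of genes, with 934 at an unadjusted p under 0.05 and 52 called by DESeq2.

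Between 3 weeks and 5 months, within the first batch, the mean of Spink1 in vehicle livers was 2.77 ± 1.47 CPM (SD, n = 7) and 0.789 ± 1.34 (SD, n = 7), a log2 difference of -1.68 (SE 0.77, edgeR adjusted p = 0.147). Without 5-month vehicle liver 4 it was -3.37 (edgeR adjusted p = 0.00185). In TBT mice, 5-month low-risk livers differed from 3-week livers by -0.14 (SE 1.07, edgeR adjusted p = 0.942), and by -3.71 (adjusted p = 0.0102) without low-risk liver 2. With all samples, no fall with age passed the test in either arm. The 2 values that passed leave out the 5-month liver with the most Spink1 in its group. That choice was made after seeing the data and by itself enlarges a fall. In TBT mice 6 alternatives turned the direction. In these comparisons 18.9% and 26.2% of genes were called.

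At 10 months Spink1 was all but undetected in vehicle livers, with 6 counts over 6 libraries and at most 0.0730 CPM. The 5 low-risk livers stood at 0.0646, 0.0757, 0.0713, 0.0597 and 0.0333 CPM, from 9 counts in all. The uninvolved high-risk livers of mice 1, 5, 7 and 12 stood at 1.08, 0.474, 0.230 and 0.767 CPM, and the summed sample of mice 3 and 6 at 4.895 CPM. Every uninvolved liver thus lay above every vehicle and low-risk liver, a description with no test. In the comparisons of uninvolved with low-risk and vehicle livers 52.4% and 57.7% of all genes were called, so a difference here does not set the gene apart. Spink1 did not pass the filter on low counts in those comparisons, and no fold is given. The uninvolved livers also differed from low-risk livers in depth (34762240 to 44585060 against 26428664 to 33486835 counts), in mitochondrial counts (4.202% to 5.845% against 2.94% to 3.08%) and in the summed biliary list (153 to 316 against 66.4 to 103 CPM). The part of these in the Spink1 values was not tested.

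The 7 tumors held 47.1, 14.3, 7.92, 1.72, 0.431, 88.8 and 3.66 CPM of Spink1 (mice 1, 3, 5, 6, 7, 11 and 12), with tumors 11 and 1 highest and tumor 7 lowest. The tumor mean was 23.4 ± 33.1 CPM (SD, n = 7) against 1.49 ± 1.93 (SD, n = 5) in uninvolved liver, a log2 difference of 3.85 (SE 1.21), given as a description because it chose the gene. In this comparison 18.1% of 16362 genes were called. In 6 mice tumor and uninvolved liver came from the same animal, and Spink1 was higher in the tumor in 5 of them. The ratio was 43.8 in mouse 1, 2.85 in mouse 3, 16.7 in mouse 5, 1.87 in mouse 7 and 4.77 in mouse 12, while in mouse 6 the tumor held 0.361 times the uninvolved level. With the mouse as a block the log2 fold change was 2.19 (SE 0.89), and 3.72 (SE 0.69) without mice 3 and 6. The ratios of mice 3 and 6 rest on the 2 uninvolved libraries that were nearly alike (5.01 and 4.78 CPM).

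**Figure D2:**
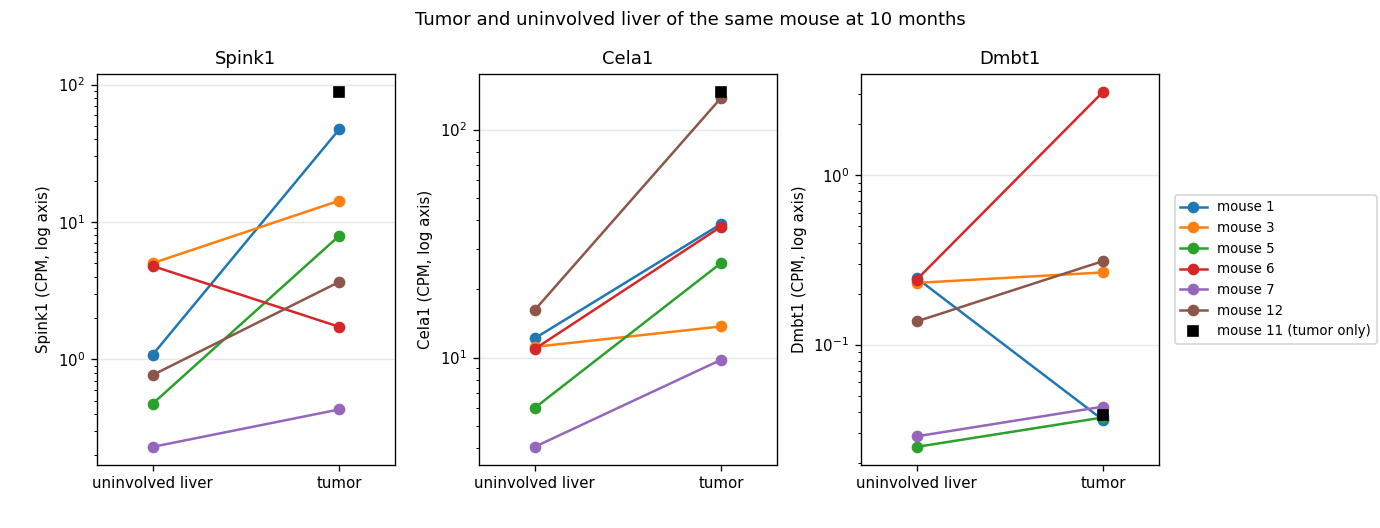
CPM (log axes) of the 3 genes in uninvolved liver and tumor of the same mouse at 10 months, 1 line for each of 6 mice and a square for the tumor of mouse 11. Cela1 was higher in the tumor in 6 of 6 mice and Spink1 in 5 of 6, with the nearly identical uninvolved livers of mice 3 and 6 drawn apart, while Dmbt1 was at most 0.311 CPM in all but the tumor of mouse 6.

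Cela1 was found in every sample, from 0.509 to 248 CPM with a median of 11.1 CPM. It was low at 3 weeks, higher in adult vehicle and low-risk livers, lower again in 9 of 10 high-risk livers at 5 months and in uninvolved high-risk liver at 10 months, and highest in single livers and tumors. Per kilobase of exon, the group medians were 2.06 CPM in 3-week vehicle, 1.42 in 3-week TBT, 7.44 in 5-month vehicle, 5.55 in 5-month low-risk, 2.25 in 5-month high-risk, 13.1 in 10-month vehicle, 9.91 in 10-month low-risk, 4.78 in uninvolved liver and 16.3 in tumors. On this scale the Cela1 median was above the Spink1 median in vehicle and low-risk livers of 5 and 10 months, in uninvolved liver and in tumors, and below it in 5-month high-risk livers and in both 3-week groups.

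At 3 weeks, Cela1 ran from 1.28 to 11.1 CPM with a median of 4.75 in vehicle livers and from 0.509 to 10.2 with a median of 3.26 in TBT livers. The groups overlapped almost throughout. The means were 5.01 ± 3.35 (SD, n = 7) and 4.17 ± 3.63 CPM (SD, n = 8), a log2 difference of -0.23 (SE 0.62, edgeR adjusted p = 0.999). Vehicle mouse 3 was sequenced in 2 libraries that were summed, although they held 1.48 and 7.31 CPM of Cela1.

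Cela1 was higher at 5 months than at 3 weeks. In vehicle livers of the first batch the 5-month mean was 18.9 ± 13.2 CPM (SD, n = 7), and the log2 fold change was 2.13 (SE 0.55, edgeR adjusted p = 0.0123). Cela1 was called in this comparison, where 8.93% of genes were called higher. Spink1 was not called, and Dmbt1 did not pass the filter on low counts. The call was lost with no filter on low counts (2.15, edgeR adjusted p = 0.130). In TBT mice, 5-month low-risk livers of the first batch had a mean of 25.5 ± 10.7 CPM (SD, n = 6), higher than at 3 weeks by 2.67 on the log2 scale (SE 0.57, edgeR adjusted p = 0.00319), where 13.7% of genes were called higher.

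From 5 to 10 months no difference of Cela1 in vehicle or low-risk livers passed the test. Cela1 in 10-month vehicle livers ran from 20.3 to 36.8 CPM with a median of 30.1, a log2 difference of 0.47 from 5 months (SE 0.43, edgeR adjusted p = 0.509) in a comparison in which 8.13% of genes were called. The 10-month low-risk livers 2, 4, 8, 9 and 10 stood at 43.0, 16.8, 22.9, 33.95 and 20.5 CPM, a difference of 0.07 from 5-month low-risk livers (SE 0.33, edgeR adjusted p = 0.976). In that comparison 0.00% of genes were called by edgeR, 1123 had an unadjusted p under 0.05 and DESeq2 called 60. Low-risk and vehicle livers of 10 months overlapped and differed by -0.16 (SE 0.32, edgeR adjusted p = 0.9999). There too edgeR called 0.00% of 16338 genes, with 688 at an unadjusted p under 0.05 and 1 called by DESeq2.

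At 5 months, Cela1 ran from 5.03 to 38.9 CPM in vehicle livers with a median of 17.2, from 8.39 to 39.3 in low-risk livers with a median of 12.8, and from 1.11 to 248 in high-risk livers with a median of 5.18. High-risk liver 1 held 248 CPM, 85.04% of the sum over its group, and the next highest high-risk liver stood at 6.54 CPM. The other 9 high-risk livers all lay below the lowest of the 16 low-risk livers. With all samples, 38.9% of 14773 genes were called between these groups and 18.5% called lower, so this does not set Cela1 apart. How many genes separated in this way was not counted. Of the 8 vehicle livers, 3 also lay below it, livers 4, 6 and 9 at 5.03, 5.50 and 7.42 CPM.

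Because of that 1 liver the tested difference depended on whether it was included. With all samples, Cela1 was 0.73 higher on the log2 scale in high-risk than in low-risk livers (SE 0.75, edgeR adjusted p = 0.463), from means of 29.2 ± 77.0 (SD, n = 10) and 16.6 ± 9.61 CPM (SD, n = 16). Without high-risk liver 1, a choice made after seeing the data, it was lower by -1.90 (SE 0.36, edgeR adjusted p = 7.63e-05). Against vehicle the log2 difference was 0.56 (SE 0.998, edgeR adjusted p = 0.741) with all samples and -1.93 (SE 0.44, edgeR adjusted p = 0.00235) without that liver. With all samples, 15.8% of genes were called in that comparison and 7.38% called lower. Low-risk livers differed from vehicle by -0.17 (SE 0.75, edgeR adjusted p = 0.998).

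Cela1 also differed between the sequencing batches of 1 group, with a median of 27.5 CPM in 6 low-risk livers of the first batch and 10.9 CPM in 10 of the second. The high-risk medians were 3.89 CPM in the 3 livers of the first batch and 6.02 in the 7 of the second. Within the first batch, which does not hold high-risk liver 1, high-risk livers were lower than low-risk livers by -3.19 (SE 0.77, edgeR adjusted p = 0.0280). Within the second batch the value was 1.63 (SE 0.84, edgeR adjusted p = 0.153).

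**Figure D3:**
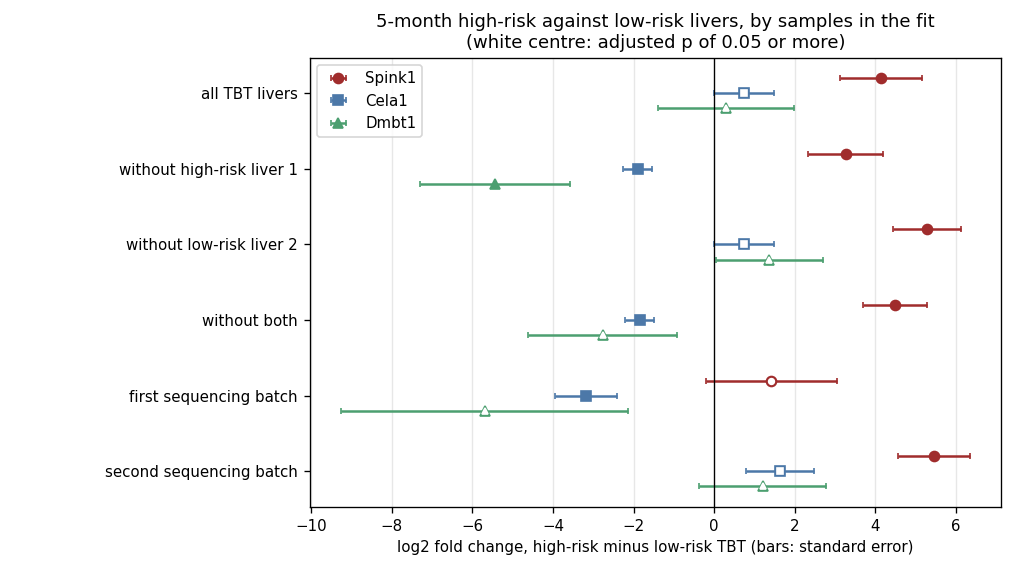
Log2 fold change with its standard error of each gene between high-risk and low-risk TBT livers at 5 months, for all TBT livers, without single livers and within each sequencing batch. Spink1 is above 0 in every row, Cela1 moves from 0.73 to -1.90 without high-risk liver 1, and Dmbt1 moves from 0.29 to -5.44.

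At 10 months, Cela1 stood at 12.1, 6.01, 4.06 and 16.1 CPM in the uninvolved livers of mice 1, 5, 7 and 12 and at 11.02 CPM in the summed sample of mice 3 and 6. All 5 lay below the lowest vehicle liver (20.3 CPM) and the lowest low-risk liver (16.8 CPM). The uninvolved mean was 9.87 ± 4.86 CPM (SD, n = 5), against 27.4 ± 10.8 (SD, n = 5) in low-risk and 29.3 ± 7.10 (SD, n = 6) in vehicle livers. The log2 differences were -1.70 (SE 0.35) and -1.86 (SE 0.34), given with no test because the uninvolved livers are one side of the comparison that chose the gene. In these comparisons 52.4% and 57.7% of genes were called. The same differences in depth and mitochondrial counts as for Spink1 lie between these groups, and their part was not tested.

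The tumors of mice 1, 3, 5, 6, 7, 11 and 12 held 38.6, 13.7, 26, 37.5, 9.78, 147 and 138 CPM of Cela1. Tumors 11 and 12 stood apart, and of the other 5, 3 lay within the range of the 10-month vehicle and low-risk livers and those of mice 3 and 7 below it. The tumor mean of 58.6 ± 58.2 CPM (SD, n = 7) was higher than that of uninvolved liver by 2.51 on the log2 scale (SE 0.69), and higher than that of low-risk and vehicle livers by 0.85 (SE 0.63) and 0.68 (SE 0.55), all as a description. The last 2 values were 0.42 and 0.27 without tumor 11 and 0.49 and 0.33 without tumor 12. In the comparisons with low-risk and vehicle livers 36.7% and 45.9% of genes were called. Within mice, the tumor was higher in 6 of 6, with ratios of 3.18, 1.23, 4.33, 3.45, 2.41 and 8.54 in mice 1, 3, 5, 6, 7 and 12. The ratios of mice 3 and 6 again rest on the 2 nearly identical uninvolved libraries (11.1 and 10.9 CPM), which count as 1 sample, so the 6 ratios draw on 5 uninvolved samples. With the mouse as a block the log2 fold change was 1.71 (SE 0.29), and 2.09 (SE 0.23) without mice 3 and 6. Between ages, uninvolved liver of 10 months differed from the 3 first-batch high-risk livers of 5 months by 1.56 (SE 0.57) for Cela1 and -1.95 (SE 0.98) for Spink1, also as a description, where 0.0372% of 18832 genes were called.

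Dmbt1 behaved unlike the other 2 genes, since it was near 0 in most livers of every group and very high in a few. Its median over 72 samples was 0.257 CPM, 26 samples held at most 3 counts and 9 reached 10 CPM. Per kilobase of exon its highest group median was 0.0766 CPM, in 3-week vehicle livers, and Dmbt1 had the lowest median of the 3 genes in every group except 5-month low-risk livers, where the Spink1 median was 0.

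The highest Dmbt1 levels were 553 CPM in 5-month low-risk liver 2, 227 in 5-month high-risk liver 1 and 216 in 3-week TBT liver 2. Then came 5-month vehicle liver 4 (80.1), 5-month low-risk livers 8 (79.1) and 20 (34.6), 3-week vehicle livers 1 (34.2) and 3 (24.1), and 10-month low-risk liver 2 (14.5). These 9 livers came from 6 of the 9 groups and all 3 ages, from vehicle and TBT mice. None was an uninvolved high-risk liver or a tumor. The 10-month library with both a vehicle and a tumor label held 30.8 CPM, and 14.06% of its counts were mitochondrial.

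In the 3-week vehicle group Dmbt1 ran from 0.206 to 34.2 CPM with a median of 0.541, and in 3-week TBT livers from 0.0637 to 216 with a median of 0.468. At 5 months the range was 0 to 80.1 CPM in vehicle livers (median 0.294), 0 to 553 in low-risk livers (median 0.406) and 0 to 227 in high-risk livers (median 0.511). One liver held 93.1%, 81.6% and 95.7% of the summed CPM of these 3 groups, so means describe single livers. The 2 libraries of 3-week vehicle mouse 3 held 63.5 and 0.957 CPM of Dmbt1, so the level differed between libraries that the labels give to 1 mouse. Mitochondrial genes took 13.467% of the counts in the first of these libraries and 2.858% in the other.

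At 10 months, Dmbt1 was at 0 in 3 of 6 vehicle livers, with 10 counts in all and at most 0.306 CPM. Of the low-risk livers, number 2 stood at 14.5 CPM and livers 4, 8, 9 and 10 at 0.568, 0.0357, 0.209 and 0.333 CPM. The uninvolved samples stood at 0.247, 0.236, 0.0249, 0.0288 and 0.137 CPM (mouse 1, mice 3 and 6, then 5, 7 and 12). The tumors held 0.0358, 0.267, 0.0372, 3.103, 0.0431, 0.0386 and 0.311 CPM (mice 1, 3, 5, 6, 7, 11 and 12). All 4 groups overlapped. The difference between vehicle ages that chose the gene was from a median of 0.411 CPM in 7 first-batch livers of 5 months to 0.0170 CPM at 10 months, where 2 vehicle livers of 5 months exceeded 1 CPM and none of 10 months did.

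Dmbt1 passed the filter on low counts in 5 comparisons. When the 5-month high-risk livers were set against the low-risk ones, the log2 fold change was 0.29 (SE 1.69, edgeR adjusted p = 0.907). It was -5.44 (SE 1.87, adjusted p = 0.0204) without high-risk liver 1 and -2.77 (SE 1.84, adjusted p = 0.239) without low-risk liver 2 as well, both by edgeR. Between 10-month and 5-month low-risk livers it was -4.80 (SE 2.57, edgeR adjusted p = 0.700). The change of the risk difference between the ages was 1.18 (SE 3.96, edgeR adjusted p = 0.972), in a fit in which 0.0213% of genes were called. That value was -7.44 (SE 2.08, edgeR adjusted p = 0.242) without 5-month low-risk liver 2 and 4.65 (adjusted p = 0.863) without 10-month low-risk liver 2, so its direction depended on 1 liver. With all samples kept, Dmbt1 was called in none of these 3 comparisons. The other 2 include the 5-month vehicle livers and are a description. High-risk minus vehicle was 2.76 (SE 2.42), and -2.50 without high-risk liver 1. Low-risk minus vehicle was 2.47 (SE 1.85), and -4.17 without low-risk liver 2. Without vehicle liver 4 these differences were 7.38 and 7.24.

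Of the 9 livers with the most Dmbt1, some had high sums over lists of pancreatic acinar or intestinal genes and some did not. The source of that RNA was not tested. High-risk liver 1 had counts for 27 of 28 pancreatic acinar genes, a list without the 3 members, with a summed level of 234 CPM against a median of 4.08 over 74 libraries. It held 42.0 CPM of the lipase-related Pnliprp1, 21.5 of the elastase Cela2a, 10.9 of the chymotrypsinogen Ctrb1 and 118 of the regenerating protein gene Reg1, next to 161 CPM of the muscle gene Ttn. This was also the liver with the most Cela1 and the third most Spink1 of all samples. The amylase gene Amy2a5 stood at 0.244 CPM there.

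Low-risk liver 2 held 151 CPM over the acinar list, of which 136 were the granule protein gene Zg16, while the trypsinogen gene Prss2 was at 0. It was the library with the highest summed level of 6 intestinal epithelial genes (845 CPM against a median of 1.66), with 220 CPM of the brush-border sucrase gene Sis and 146 of Cdh17, and with 653 CPM of Fcgbp, a gut mucus protein. Its Cela1 (39.3 CPM) was the highest and its Spink1 (10.9 CPM) was also the highest of its group.

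The third, 3-week TBT liver 2, had counts for 22 of 28 acinar genes (42.8 CPM in sum, 8.67 of Ctrb1). Vehicle liver 4 of 5 months held no more than 1.55 CPM over the acinar list and 1.05 over the intestinal list, and instead 2357 CPM of the acute phase gene Saa1 (median 91.4 over all libraries) and 550 of Lcn2 (median 26.3). High-risk liver 1 also held 1943 CPM of Saa1 and 653 of Lcn2. In 5-month vehicle liver 6 Saa1 stood at 4875 CPM and Dmbt1 at 0.411 CPM. Of the other high-Dmbt1 livers, 3-week vehicle liver 1 held 37.2 CPM over the acinar list and the 2 libraries of 3-week vehicle mouse 3 held 4.29 and 9.66 CPM, and 5-month low-risk liver 8 held 19.6 CPM over the intestinal list with 1.43 over the acinar list. Low-risk liver 20 of 5 months (3.56 and 0.356 CPM) and low-risk liver 2 of 10 months (2.16 and 0.678 CPM) were below the medians of both the acinar and the intestinal list. Saa1 stood at 1361 CPM in the former and at 798.6 CPM in the latter, above its median of 91.4. Apart from these livers, vehicle liver 4 and high-risk liver 1, the high-Dmbt1 livers held at most 80.31 CPM of Saa1 in any library. Sums over the acinar or intestinal list were also high in some libraries outside these high-Dmbt1 livers. A 5-month vehicle liver other than liver 4 held 97.8 CPM over the acinar list. Dmbt1 in those vehicle livers was at most 4.94 CPM, in liver 9, a library of only 2831666 counts with 38206 genes detected. An uninvolved high-risk library held 37.6 CPM over the intestinal list, in a group with Dmbt1 at most 0.247 CPM. The acinar list had medians of 10.3 CPM in 3-week TBT and 14.4 in 3-week vehicle libraries. The intestinal list was put together after these values were seen. The part of acinar, intestinal, muscle and acute phase RNA in the Dmbt1, Cela1 and Spink1 levels of these livers was not tested.

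**Figure D4:**
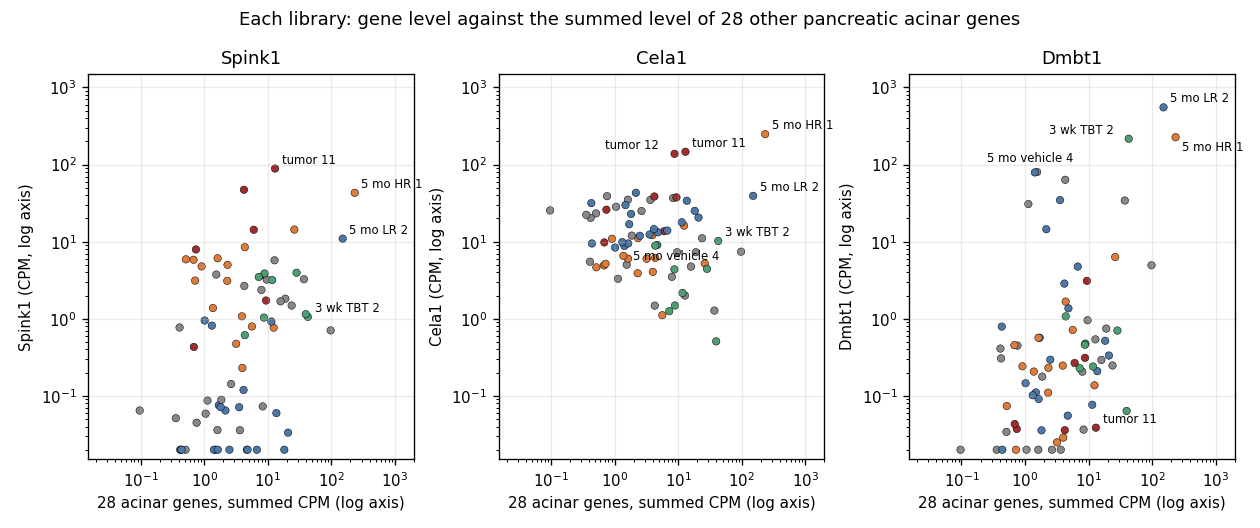
Level of each gene in each library against the summed level of 28 other pancreatic acinar genes (both log axes in CPM), with tumors in dark red, high-risk livers in orange, low-risk livers in blue, 3-week TBT livers in green and vehicle livers in grey. High-risk liver 1 (HR 1) and low-risk liver 2 (LR 2) of 5 months lie at the right with the highest acinar sums, while tumors 11 and 12 have the next highest Cela1 at acinar sums of 13.1 and 8.79 CPM.

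In tumors the acinar sum was lower than in high-risk liver 1. Tumors 11 and 12, with the most Cela1, summed to 13.1 and 8.79 CPM over the acinar list, with Pnliprp1 at 0 and 0.389 CPM, and tumor 1, second to tumor 11 in Spink1, summed to 4.23 CPM. Over all tumors the acinar sum ran from 0.689 to 13.1 CPM, in uninvolved liver from 0.913 to 12.4, and in 10-month vehicle liver from 0.0968 to 8.35. The biliary list summed to 895 CPM in tumor 11, the tumor with the most Spink1. It ran from 173 to 895 CPM in tumors against 153 to 316 in uninvolved liver. In tumor 11 the single gene Spp1 held 847 CPM of that sum. Krt19 stood there at 2.09 CPM (median 2.01 over all libraries) and Epcam at 4.13 (median 2.14). Of 12 biliary genes tested between tumors and uninvolved liver, 1 was higher and 2 were lower, beside 18.1% of all genes called.

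The 3 genes did not move as one. In the top 9 samples by Dmbt1, 3 were also in the top 9 by Cela1 and 2 in the top 9 by Spink1. Within a group, Spink1 and Cela1 could be correlated in 4 groups of at least 6 samples with a median of at least 10 counts for both genes. In 5-month high-risk livers Pearson's r of log2 CPM was 0.80 (n = 10, permutation p = 0.0088, adjusted 0.0352) and Spearman's rho 0.58 (permutation p = 0.0898, adjusted 0.176), and without the 2 samples farthest from the median r was -0.28, so the relation rested on those samples. In 3-week vehicle livers r was -0.75 (n = 7, exact permutation p = 0.0496, adjusted 0.0992) and rho -0.82 (exact p = 0.0341, adjusted 0.137), with r of -0.63 without 2 samples. In 3-week TBT livers r was -0.46 (n = 8, exact permutation p = 0.245, adjusted 0.296) and rho -0.60 (exact p = 0.132, adjusted 0.176), with r of -0.41 without 2 samples. In tumors r was 0.46 (n = 7, exact permutation p = 0.296, adjusted 0.296) and rho 0.57 (exact p = 0.200, adjusted 0.200), with r of -0.34 without 2 samples. All 4 tests were two-sided and adjusted together.

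Across all 72 samples, the genes whose log2 CPM followed Spink1 most closely among 12301 genes were Aqp7 (r = 0.85), a glycerol channel, Golm1 (0.85), a Golgi protein raised in liver disease, Syt14 (0.84), the kinase gene Src (0.84) and the membrane-binding Anxa2 (0.84). For Cela1 they were the serpin gene Serpina12 (0.77), the lipid droplet gene Fitm1 (0.77), the epoxide hydrolase gene Ephx2 (0.77), Cmbl (0.76) and Tgds (0.76). For Dmbt1 they were Zg16 (0.66), Reg1 (0.65), Ckmt1 (0.64), the brush-border myosin gene Myo1a (0.60) and Fcgbp (0.51), all highest in low-risk liver 2. These correlations describe samples that share groups, ages and batches, and carry no test.

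Of the other Spink genes, 11 in all, only Spink5, which encodes an inhibitor of skin and epithelial proteases, passed the filter in the 5-month and 10-month comparisons of high-risk with low-risk livers. It was higher in high-risk livers by 1.75 (SE 0.35, edgeR adjusted p = 0.000154) at 5 months, from 0.856 ± 0.649 (SD, n = 16) to 3.60 ± 1.01 CPM (SD, n = 10), and in uninvolved livers by 1.72 (SE 0.34, edgeR adjusted p = 0.000602) at 10 months. Of 28 acinar genes, 1 was tested at 5 months and not called, and 3 were tested at 10 months. Of these 3, Cela2a was lower in uninvolved liver by -4.23 (SE 0.76, edgeR adjusted p = 0.000252), at 0.0934 ± 0.105 (SD, n = 5) against 1.54 ± 1.04 CPM (SD, n = 5). Cela2a was near the floor in uninvolved liver and passed the filter on low counts through the other livers of that fit. That value is therefore not read as a result for the acinar list, most of which was not tested.

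Among 14 other inhibitors of trypsin and elastase and their receptor, 2 rose and 8 fell when high-risk livers of 5 months were set against low-risk ones, with a median log2 fold change of -0.66 against -0.01 over all genes. Over all genes tested there, 20.3% were higher and 18.5% lower. The higher ones were F2rl1, the receptor that trypsin activates (2.08, SE 0.62, edgeR adjusted p = 0.00807), and Slpi, a secreted elastase inhibitor (2.57, SE 0.48, adjusted p = 7.06e-05). The antitrypsin genes Serpina1c (-1.12, SE 0.15) and Serpina1d (-0.96, SE 0.13) were lower. In uninvolved liver at 10 months 2 of 13 were higher and 7 lower (27.7% and 24.7% of all genes), with a median of -0.40, with F2rl1 higher by 3.29 (SE 0.58, edgeR adjusted p = 0.000214) and Wfdc21 lower by -1.18 (SE 0.12, adjusted p = 1.46e-06).

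Of 16 other scavenger receptor cysteine-rich genes, the family of Dmbt1, 12 were tested at 5 months, and the high-risk livers held more RNA of 4 and less of 1, or 5 of 12 called beside 38.9% of all genes. The lower one was the macrophage receptor gene Cd163, at 3.20 ± 4.02 (SD, n = 10) against 24.5 ± 7.12 CPM (SD, n = 16), a log2 difference of -3.20 (SE 0.52, edgeR adjusted p = 1.54e-05). The lysyl oxidase gene Loxl2 was higher by 1.58 (SE 0.22, edgeR adjusted p = 1.54e-06) and Lgals3bp by 0.72 (SE 0.12, adjusted p = 1.56e-05). At 10 months 6 were higher and 3 lower of 15 in uninvolved liver, beside 52.4% of all genes called, with Cd163 lower by -4.51 (SE 0.24, edgeR adjusted p = 2.70e-09), Marco by -2.30 (SE 0.43, adjusted p = 0.000503) and Loxl3 higher by 1.495 (SE 0.20, adjusted p = 1.76e-05).

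Markers of other cell types were counted in the same comparisons, in which 38.9% of all genes were called at 5 months and 52.4% at 10 months. The counts of called neutrophil and macrophage genes (4 of 10), hepatocyte genes (4 of 8) and acute phase genes (5 of 18) at 5 months are not read as a result beside that share. Of 11 biliary genes, 10 were higher in uninvolved than in low-risk liver at 10 months, Cldn4 by 4.62 (SE 0.49, edgeR adjusted p = 1.92e-06). Of 18 mucosal secretory genes, a list that holds proteins secreted beside Dmbt1 at mucosal surfaces, 5 were tested at 5 months, with Muc1 higher by 1.82 (SE 0.49, edgeR adjusted p = 0.00349) and Pigr lower by -1.50 (SE 0.33, adjusted p = 0.000462). Of 18 acute phase genes none was higher and 5 were lower in 5-month high-risk livers, Crp by -1.03 (SE 0.16, edgeR adjusted p = 3.78e-06). Of 10 tested neutrophil and macrophage genes 3 were higher and 1 lower, Cd68 by 0.90 (SE 0.15, edgeR adjusted p = 9.71e-06), and of 8 hepatocyte genes 1 was higher and 3 lower, Apoa1 by -0.81 (SE 0.16, adjusted p = 0.000136).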

How the data were processed

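Per the submitters' processing notes, reads were processed with Trim Galore, HISAT2 and featureCounts on mm10. The deposited whole-number counts per gene were batch-adjusted by the authors with ComBat-seq, per the file name. Tool versions, strand setting and adjustment settings are not given in the sources used here. The adjustment can shift low counts.

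Counts of the 2 libraries of 3-week vehicle mouse 3, and of uninvolved livers 3 and 6, were summed, leaving 72 samples. The library with vehicle and tumor labels was left out. CPM were computed on library totals. Tests used edgeR 4.0.16 (filterByExpr, TMM, quasi-likelihood) in R 4.3.3. Each used the groups compared, but 5-month livers were fitted together with the sequencing batch as a covariate, as were 10-month livers without tumors. Comparisons between ages used the first batch. DESeq2 1.42.0 was an alternative. Log2 CPM for correlations had a prior count of 2. The test was checked on simulated data. Tumor and uninvolved liver are paired by the mouse number in the labels (deviations of same-numbered samples correlated at -0.40 to 0.71, median 0.12, over 6 pairs).

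The members and gene lists were chosen with earlier results of these data known. Named genes are the 3 members, the 5 genes best correlated with each, and from each list up to 3 called genes with the smallest adjusted p and up to 2 defining genes near 0, plus genes named after their values were seen where a library stood apart (Slpi and the tissue genes of single livers). Intervals, floors (3 counts) and counts cover counting error only. Alternatives were another normalization, no filter, DESeq2, batches apart, single samples left out and a replicate block.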

Additional observations from a re-analysis of the deposited data

Results flagged for a closer look

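In 24 group and gene combinations of 4 to 10 samples, 5 held a sample whose gap to the nearest other was large against the range of its group on the log2 scale (Dixon's 95% limit), where chance alone gives about 1 in 20. Cela1 stood at 248 CPM in 5-month high-risk liver 1, and Dmbt1 at 227 CPM in the same liver. Dmbt1 also stood apart at 216 CPM in 3-week TBT liver 2, at 3.1 CPM in the tumor of mouse 6 and at 0.306 CPM in 10-month vehicle liver 7, the last from 8 counts. Outside the compared groups, the 10-month library with both a vehicle and a tumor label held 30.8 CPM of Dmbt1, above all 10-month vehicle livers.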

How the results depend on the processing

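Of 319 values of 22 tested results under alternatives, 274 kept their direction and side of the threshold. All values are log2 fold changes, with the cause of each change not tested. Without high-risk liver 1, the 5-month high-risk minus low-risk value was -1.90 for Cela1 and -5.44 for Dmbt1, and -1.85 and -2.77 without low-risk liver 2 too. Within the first batch it was 1.42 for Spink1, -3.19 for Cela1 and -5.70 for Dmbt1, and with no batch covariate -0.93 for Dmbt1. Against vehicle, Spink1 fell short at 4.96 (no filter), 2.67 (first batch) and 3.14 (2 groups only), and Cela1 was -2.92 (first batch), -2.06 (2 groups only), -1.93 (without high-risk liver 1) and -2.02 (without both livers). Low-risk minus vehicle at 5 months was -2.12 for Spink1 without low-risk liver 2 and -1.69 without both livers. For Cela1 it was 0.26 in the first batch, 0.19 with 2 groups only and -0.35 to 0.06 with single vehicles left out. At 10 months it was 0.04 for Cela1 with the doubly labelled library among the vehicles.

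With single samples left out, TBT minus vehicle at 3 weeks ran from -0.41 to 0.01 for Spink1 and from -0.56 to 0.12 for Cela1. Vehicle 5 months minus 3 weeks ran from -3.37 to -1.41 for Spink1. Low-risk 10 minus 5 months ran from -0.16 to 0.20 for Cela1, and was -0.12 without the technically deviating libraries. Low-risk 5 months minus 3 weeks ran from -3.71 to 0.14 for Spink1, was 0.11 without those libraries and -3.81 without 5-month low-risk liver 2 and 3-week TBT liver 2. The change of the risk difference with age ran from -7.44 to 4.65 for Dmbt1. Cela1 in vehicle 5 months against 3 weeks was 2.15 with no filter. The correlation of Spink1 and Cela1 without 2 samples was -0.28 in high-risk livers and -0.34 in tumors.

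With a replicate block on shared mouse numbers, which outside the tumors share only a number, high-risk minus vehicle at 5 months was 1.73 for Spink1 and -0.75 for Cela1 over 3 numbers, low-risk minus vehicle at 10 months was 0.04 for Cela1 and vehicle 5 months minus 3 weeks was 2.21 for Cela1. With that block tumor minus vehicle was -0.55 for Cela1, a change of direction, and high-risk minus vehicle at 5 months -4.53 for Dmbt1. Same-numbered samples correlated at medians of -0.06 to 0.19 there. Low depth limits Spink1 and Dmbt1, which held at most 3 counts in 29 and 26 of 72 samples.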
